A study of Mus musculus with 54 samples.

Results

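The mitochondrial genome was represented by 37 of the 55487 rows of the deposited table, taken as every gene whose name begins with mt-. They were 13 messenger RNAs, 2 ribosomal RNAs and 22 transfer RNAs. RNA had been measured in SGLT2-positive early proximal tubules, 70 to 80 per sample, cut by laser capture from kidneys of male DBA mice aged 14 weeks. Wild-type mice for Sglt1, the glucose transporter of the later proximal tubule, and Sglt1-/- mice were compared, either non-diabetic (Ins2+/+) or diabetic littermates (Ins2 Akita/+, a mutation of the insulin gene that causes insulin-deficient diabetes). Treatment lasted 2 weeks. Akita wild type received semaglutide, a GLP-1 receptor agonist injected under the skin at 3 nmol/kg per day (5 samples), dapagliflozin, an SGLT2 inhibitor given at 10 mg/kg diet (5 samples), or vehicle (6 samples). Akita knockouts received dapagliflozin (6 samples) or vehicle (6 samples). Non-diabetic knockouts received dapagliflozin (6 samples) or vehicle (5 samples), and non-diabetic wild type received dapagliflozin (4 samples) or vehicle (5 samples). Nothing in the labels says which sample came from which animal. Every p-value therefore weighs a difference against the sample-to-sample spread, part of which may be technical. The deletion and the Akita mutation are carried by every cell of the animal, not by the tubule alone.

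The mitochondrial genome is a small circle present in many copies per cell. It encodes subunits of complexes I, III, IV and V of oxidative phosphorylation, together with the ribosomal and transfer RNAs needed to translate them inside the organelle. Both strands are transcribed into long precursors, which are cut mostly at the transfer RNAs that lie between the other genes, so the level of each mature RNA depends on its own stability as well as on transcription. Proximal tubules are among the cells richest in mitochondria and draw nearly all their ATP from oxidative phosphorylation.

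The values are TPM, in which a gene's level is divided by its length and each library is scaled to the same sum. Between 8465 and 11419 genes reached a TPM of 1 per library. The sequencing depth behind these values, and with it the counting error, is unknown, since TPM does not retain it. A nuclear ribosomal RNA row on chromosome 17, ENSMUSG00000106106, took 36.8% to 64.4% of a library. Nuclear protein-coding genes other than Lars2, whose level is given below, took 5.98% to 14.1%. Lars2 was left out of this set wherever the nuclear protein-coding share or a rescaling to it is used. Slc5a1, the gene of SGLT1, was at 0 to 0.123 TPM in the 23 knockout libraries and at 0.814 to 4.29 TPM in the 25 wild-type libraries. All 8 markers of the early proximal tubule had a median above 1 TPM, with a summed level of 774 to 1891 TPM. The summed markers of the thick ascending limb (6 genes) were at 14.1 to 70.6 TPM, those of the distal tubule and collecting duct (9 genes) at 12.8 to 256 TPM, of endothelium (6 genes) at 7.06 to 35.1 TPM, of immune cells (5 genes) at 4.56 to 178 TPM and of podocytes (6 genes) at 1.69 to 26.0 TPM. In tissue samples of this kind, fewer mitochondria-rich cells and less mitochondrial RNA per cell cannot be told apart.

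The 12S and 16S ribosomal RNAs, the RNA cores of the small and the large subunit of the mitochondrial ribosome, were the most abundant members. On the TPM scale mt-Rnr2 (16S, chrM:1094-2675, plus strand, GRCm38) averaged 135369 ± 30967 TPM and mt-Rnr1 (12S, chrM:70-1024, plus strand) 96917 ± 32521 TPM (SD, n = 48). Together they took 14.2% to 31.7% of a library, against 0.464% to 1.65% for the 13 messenger RNAs summed. The ratio of the sums was 9.80 to 56.7, with a median of 22.8. The nuclear gene Lars2, for the mitochondrial leucyl-tRNA synthetase, averaged 18037 ± 2291 TPM (SD, n = 48), more than any mitochondrial messenger RNA. A BLAST search with an e-value limit of 1e-10 found 0 matches of Lars2 transcripts to the mitochondrial transcripts, at any identity or length. The search did not compare Lars2 with nuclear ribosomal RNA, and whether its level includes reads of other RNAs was not tested.

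mt-Rnr2 varied least of the members over all libraries, with a coefficient of variation of 22.9%. In Akita wild type, mt-Rnr2 stood at 158131, 157131, 144985, 114294 and 202849 TPM with semaglutide, at 73372, 128268, 133028, 161513 and 193170 TPM with dapagliflozin and at 86245 to 178693 TPM with a median of 127726 with vehicle. Akita knockouts had 87158 to 146160 TPM with a median of 123534 with dapagliflozin and 80871 to 154985 TPM with a median of 129167 with vehicle. The treated and vehicle groups overlapped on both Akita backgrounds. Non-diabetic knockouts had 97588 to 171228 TPM with a median of 127888 with dapagliflozin and 131718, 185336, 130375, 170069 and 147307 TPM with vehicle, and non-diabetic wild type had 122049, 121744, 113293 and 211605 TPM with dapagliflozin and 148186, 153997, 99896, 138309 and 119399 TPM with vehicle. The highest level of all, 211605 TPM, was in non-diabetic wild type with dapagliflozin, whose other 3 samples lay close together.

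mt-Rnr1 varied more, with a coefficient of variation of 33.6%. Among wild-type Akita tubules, mt-Rnr1 stood at 102617, 100610, 171690, 47559 and 93573 TPM with semaglutide, at 68462, 83049, 57990, 117361 and 96071 TPM with dapagliflozin and at 63248 to 123346 TPM with a median of 103309 with vehicle. Akita knockouts had 56344 to 103362 TPM with a median of 80393 with dapagliflozin and 45119 to 175879 TPM with a median of 88819 with vehicle. Its vehicle group of Akita knockouts held both the lowest and the highest library of the series. Non-diabetic knockouts had 58368 to 127272 TPM with a median of 91547 with dapagliflozin and 170527, 115174, 91644, 87249 and 90433 TPM with vehicle, and non-diabetic wild type had 139269, 73897, 103866 and 96632 TPM with dapagliflozin and 82043, 75419.8, 50055, 158830 and 133884 TPM with vehicle. No pair of these groups was separated for either ribosomal RNA. mt-Rnr2 was above mt-Rnr1 in 40 of 48 libraries and below it in 8.

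The messenger RNAs were compared per length and without the nuclear copies described below. The top and the bottom of their order were the same in nearly every library, and the middle was not. mt-Co1, the catalytic subunit of complex IV (cytochrome c oxidase), averaged 1821 ± 480.1 TPM (SD, n = 48) and ranked first among the 13 in 42 libraries. mt-Cytb, cytochrome b of complex III, averaged 1615 ± 431 TPM and ranked first in 5. mt-Atp8, a small subunit of ATP synthase (complex V), averaged 1203 ± 423 TPM and ranked first in 1. mt-Nd3 of complex I was the lowest in all 48, at 18.3 ± 12.6 TPM, and was listed at 0 in 2 libraries.

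Ranks in the middle varied, from 3 to 10 for mt-Atp6, from 4 to 10 for mt-Co2 and from 6 to 12 for mt-Co3 and mt-Nd4l. Some neighbours in this order were not separated. mt-Atp6 was above mt-Nd1 in 24 of 48 libraries, mt-Co2 above mt-Nd4 in 27 of 48, mt-Nd2 above mt-Nd4l in 26 of 48 and mt-Co3 above mt-Nd2 in 30 of 48. Others were separated in nearly every library, with mt-Cytb above mt-Atp8 in 47, mt-Atp8 above mt-Atp6 in 45 and mt-Co1 above mt-Cytb in 43. The mean levels of the rest were 823 TPM for mt-Atp6, 821 for mt-Nd1, 793 for mt-Nd5, 657 for mt-Co2, 634 for mt-Nd4, 479 for mt-Co3, 460.3 for mt-Nd2, 443 for mt-Nd4l and 244 for mt-Nd6. By complex, the 7 subunits of complex I (NADH dehydrogenase) held 34.2 ± 1.82% of the messenger sum (SD, n = 48). The 3 of complex IV held 29.6 ± 1.68%, the 2 of complex V 20.0 ± 2.32%, and cytochrome b alone 16.2 ± 0.937%.

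**Figure D1:**
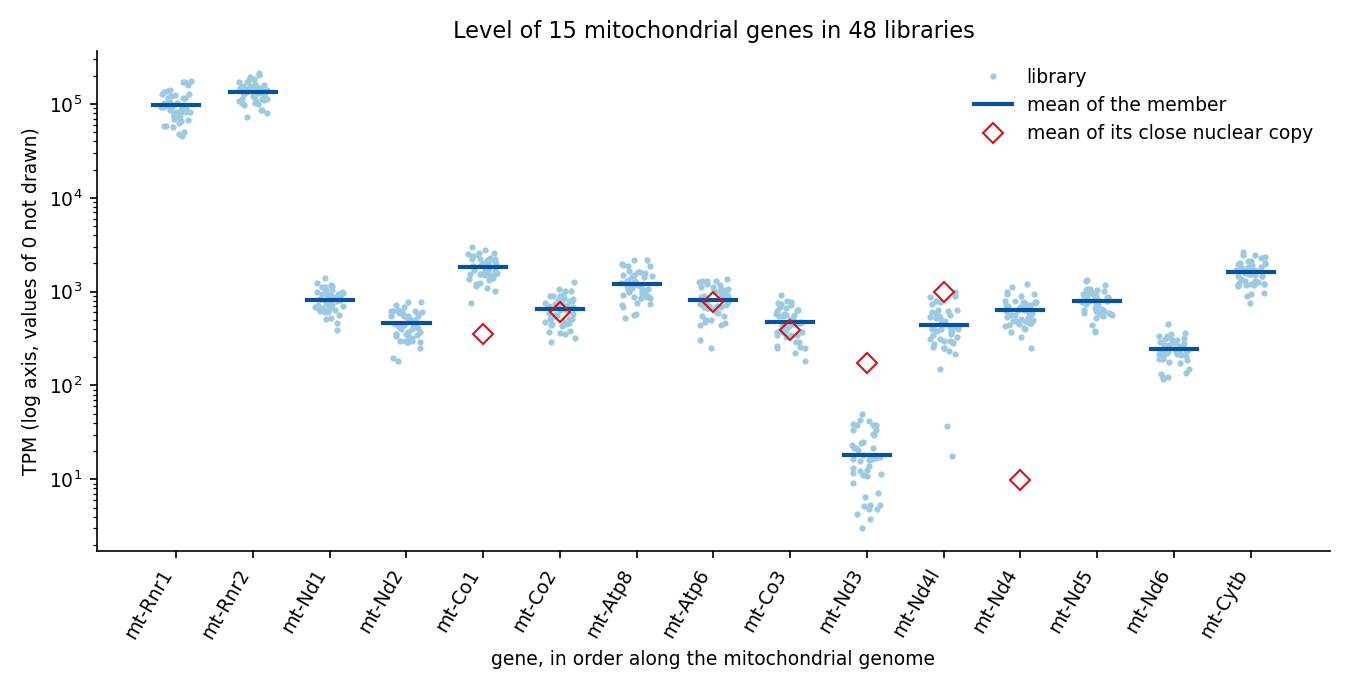
TPM of the 13 messenger and 2 ribosomal RNAs in each of 48 libraries, on a log axis with the genes in genome order. Points are libraries, lines are means, and diamonds are means of the nuclear copies that share at least 99% of their bases. mt-Rnr2 averaged 135369 TPM and mt-Nd3 18.3 TPM, and the diamond lies above the line for mt-Nd3 and mt-Nd4l.

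Of the 22 transfer RNAs, which carry amino acids to the mitochondrial ribosome and are 59 to 75 bases long, 19 were listed at 0 in all 48 libraries. The other 3 were above 0 in 1 library each. mt-Tn stood at 198 TPM in 1 sample of non-diabetic wild type with dapagliflozin, mt-Td at 196 TPM in 1 of non-diabetic wild type with vehicle, and mt-Tq at 101.4 TPM in 1 of Akita wild type with vehicle. A listed 0 in TPM can be a failed estimate for so short an RNA and does not show its absence. None of the 22 entered a test. The pair printed here lies between members whose ratios to each other were measured. mt-Tl1 fills chrM:2676-2750 on the plus strand between mt-Rnr2 and mt-Nd1, and mt-Te lies at chrM:14071-14139 on the minus strand between mt-Nd6 and mt-Cytb (GRCm38, GENCODE transcripts, 5′ to 3′).
mt-Tl1: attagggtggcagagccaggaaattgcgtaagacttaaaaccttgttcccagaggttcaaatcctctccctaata
mt-Te: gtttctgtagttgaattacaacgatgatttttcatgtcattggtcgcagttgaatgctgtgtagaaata

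Some neighbouring genes share bases, which bears on how reads are divided between them. The end of mt-Atp8 (chrM:7766-7969, plus strand) overlaps the start of mt-Atp6 by 43 bases, shown in capitals within the whole mt-Atp8 transcript of 204 bases. The last 60 bases of mt-Nd4l (chrM:10114-10173, plus strand) end in 7 bases, in capitals, with which mt-Nd4 begins. Reads within these stretches belong to both genes.
mt-Atp8: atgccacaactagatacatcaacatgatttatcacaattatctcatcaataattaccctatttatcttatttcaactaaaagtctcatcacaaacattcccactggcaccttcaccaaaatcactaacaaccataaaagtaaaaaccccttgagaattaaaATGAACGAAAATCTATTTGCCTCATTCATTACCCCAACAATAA
mt-Nd4l, last bases: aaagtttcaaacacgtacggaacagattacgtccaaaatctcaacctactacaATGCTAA

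A second overlap was with the nuclear genome. Of 17 nuclear genes whose transcripts matched a mitochondrial transcript at 90% identity or more over at least 100 bases, 7 reached 99%. All 7 are annotated as unprocessed pseudogenes and lie side by side on the minus strand of chromosome 1, within chr1:24611535-24616197 (GRCm38), a stretch of nuclear DNA copied from the mitochondrial genome. They are Gm29216 (of mt-Co1), Gm28661 (mt-Co2), Gm10925 (mt-Atp6), Gm28437 (mt-Co3), Gm28438 (mt-Nd3), Gm10222 (mt-Nd4l) and Gm28439 (mt-Nd4). Gm28661, Gm10925, Gm28437, Gm10222 and Gm28439 were identical to their member over the aligned bases. Gm28438 differed from mt-Nd3 at 1 of 345 aligned bases, T3C, counted from 1 at the 5′ end of the gene (chrM position 9461). The first 60 bases of both are shown, mt-Nd3 at chrM:9459-9518 on the plus strand and Gm28438 at chr1:24613060-24613119 on the minus strand, with that base in capitals.
mt-Nd3, first bases: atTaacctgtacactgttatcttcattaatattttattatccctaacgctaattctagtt
Gm28438, first bases: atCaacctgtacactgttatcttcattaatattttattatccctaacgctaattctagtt

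The deposited values were divided between each member and its copy in unequal shares. Gm28438 took a median of 90.7% of the TPM summed over it and mt-Nd3, and was the higher of the pair in 48 of 48 libraries. Gm10222 took 69.2% of its sum with mt-Nd4l. The shares were 50.0% for the copy of mt-Co2, 48.7% for that of mt-Atp6 and 44.6% for that of mt-Co3. They were 15.4% for the copy of mt-Co1, 492 bases long against 1545, and 1.48% for that of mt-Nd4, which spans 876 of 1378 bases. Summing member and copy lowered the coefficient of variation of mt-Nd3 to 31.6%, against 68.6% for mt-Nd3 alone, and that of mt-Nd4l to 24.8%, against 47.3% alone. It fell less for mt-Co3 (35.7% to 27.6%), mt-Co2 (33.2% to 27.9%) and mt-Atp6 (34.2% to 29.7%). For mt-Nd4 it stayed at 31.6%, and for mt-Co1 it rose from 26.4% to 29.2%. Levels of these 7 members are uncertain because their sequence is shared with a copy, and those of mt-Nd3 and mt-Nd4l most so by this measure. The order, the shares by complex and the messenger sums use the members alone. TPM counts a copy per its own length, so the short copies of mt-Co1 and mt-Nd4 weigh more in sums and shares than their reads would. Summed with their copies in this way, means were 2176 TPM for mt-Co1, 1594 for mt-Atp6, 1440 for mt-Nd4l and 1260 for mt-Co2. They were 868 for mt-Co3, 643 for mt-Nd4 and 190 for mt-Nd3. The sums of mt-Atp6 and mt-Nd4l thus lay above mt-Atp8, at 1203 TPM. The mitochondrial sequence is that of the C57BL/6J reference, and the bases of the DBA mice were not examined.

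For the 13 messenger RNAs summed, Akita wild type had 0.928, 0.781, 0.901, 0.786 and 0.883% of the library with semaglutide, 1.45, 1.25, 0.619, 0.760 and 1.03% with dapagliflozin and 0.464 to 1.25% with a median of 0.784 with vehicle. Akita knockouts had 0.740 to 1.37% with a median of 1.08 with dapagliflozin and 0.574 to 1.40% with a median of 0.809 with vehicle. Non-diabetic knockouts had 0.994 to 1.36% with a median of 1.11 with dapagliflozin and 0.676, 1.21, 0.857, 1.61 and 1.15% with vehicle, and non-diabetic wild type had 0.790, 1.09, 0.789 and 0.998% with dapagliflozin and 1.17, 1.07, 0.777, 1.65 and 0.999% with vehicle. Every treated or mutant group overlapped the group it is compared with. Semaglutide samples were the closest together (SD 0.0680 percentage points) and non-diabetic knockouts with vehicle the farthest apart (SD 0.358). Relative to nuclear protein-coding genes, the messenger sum was 9.52 ± 2.09 per 100 TPM in Akita wild type with vehicle and 11.5 ± 3.40 in non-diabetic wild type with vehicle (SD, n = 6 and 5). In knockouts with vehicle it was 11.039 ± 3.86 with Akita and 10.0 ± 1.77 without.

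**Figure D2:**
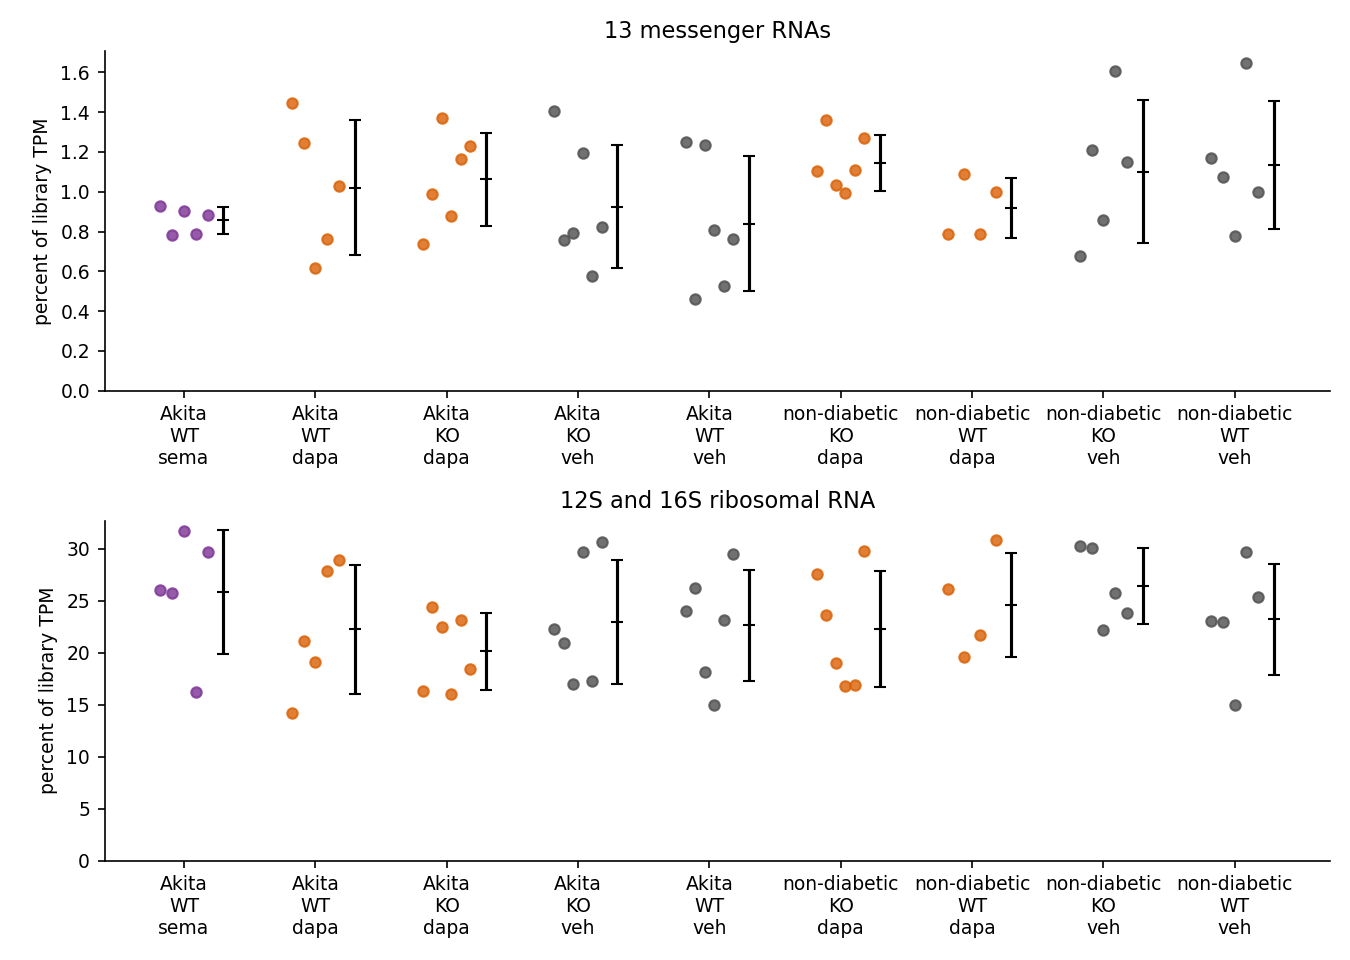
Share of each library's TPM taken by the 13 messenger RNAs (upper) and by 12S and 16S ribosomal RNA (lower), for 9 groups with 4 to 6 samples each. Points are samples and bars are means ± SD, and each treated or mutant group overlaps the group it is compared with.

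mt-Co1 (chrM:5328-6872, plus strand) ranged from 749 to 2972 TPM over all libraries. Within Akita wild type, mt-Co1 stood at 1641, 1321, 1678, 1500.1 and 1700.2 TPM with semaglutide, at 2456, 1948, 1104, 1427 and 1977 TPM with dapagliflozin and at 749 to 2257 TPM with a median of 1380 with vehicle. Akita knockouts had 1374 to 2583 TPM with a median of 2022 with dapagliflozin and 1029 to 2573 TPM with a median of 1564 with vehicle. Akita wild type with vehicle held the lowest library of the series. Non-diabetic knockouts had 1795 to 2535 TPM with a median of 2116 with dapagliflozin and 1146, 2210.4, 1722, 2749 and 1876 TPM with vehicle, and non-diabetic wild type had 1382, 1912, 1532 and 1599 TPM with dapagliflozin and 2185, 1959.7, 1545, 2972 and 1697 TPM with vehicle.

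mt-Cytb (chrM:14145-15288, plus strand) ranged from 765 to 2615 TPM. Across Akita wild type, mt-Cytb stood at 1559.6, 1274, 1556, 1212 and 1366 TPM with semaglutide, at 2442, 1898, 948, 1169 and 1583 TPM with dapagliflozin and at 765 to 2114 TPM with a median of 1177 with vehicle. Akita knockouts had 1190.1 to 2284 TPM with a median of 1761 with dapagliflozin and 965 to 2323 TPM with a median of 1404 with vehicle. The lowest library was again in Akita wild type with vehicle, and the semaglutide samples lay close together. Non-diabetic knockouts had 1648 to 2038 TPM with a median of 1709 with dapagliflozin and 1218, 1989, 1459, 2436 and 1805 TPM with vehicle, and non-diabetic wild type had 1460.3, 1649.9, 1309 and 1597 TPM with dapagliflozin and 1821, 1673, 1177, 2615 and 1671 TPM with vehicle.

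mt-Nd1 (chrM:2751-3707, plus strand), a core subunit of complex I, ranged from 395 to 1393 TPM. For Akita wild type, mt-Nd1 stood at 715, 619, 782, 669.9 and 661 TPM with semaglutide, at 1188, 946, 514, 679.9 and 805 TPM with dapagliflozin and at 395 to 1045 TPM with a median of 691 with vehicle. Akita knockouts had 676 to 1052 TPM with a median of 868 with dapagliflozin and 527 to 1129 TPM with a median of 725 with vehicle. Both Akita genotypes overlapped between treatment and vehicle. Non-diabetic knockouts had 820.3 to 1149 TPM with a median of 918 with dapagliflozin and 609, 801, 852, 1229 and 839 TPM with vehicle, and non-diabetic wild type had 643, 878, 729 and 721 TPM with dapagliflozin and 922, 809, 639.9, 1393 and 835 TPM with vehicle.

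mt-Nd6 (chrM:13552-14070, minus strand), the complex I subunit encoded on the opposite strand, ranged from 117 to 448 TPM. Among Akita wild type, mt-Nd6 stood at 231, 211, 355, 263 and 448 TPM with semaglutide, at 212, 264, 193, 314 and 334 TPM with dapagliflozin and at 117 to 327 TPM with a median of 261 with vehicle. Akita knockouts had 133 to 294 TPM with a median of 219 with dapagliflozin and 122 to 261 TPM with a median of 190.4 with vehicle. Semaglutide included the highest library of the series. Non-diabetic knockouts had 179 to 339.6 TPM with a median of 256 with dapagliflozin and 272, 294, 194, 306 and 261 TPM with vehicle, and non-diabetic wild type had 235, 272, 149 and 364 TPM with dapagliflozin and 243, 261, 137, 235 and 189 TPM with vehicle.

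Diabetes was compared within each Sglt1 genotype on vehicle. The values tested were log2(TPM + 1), and differences are Akita minus non-diabetic. In wild type, 12 of 13 messenger RNAs had a lower mean level in Akita, with a median log2 difference of -0.46 that turned to 0.11 with quantile normalization. The exception was mt-Nd6. Over all 12742 genes tested the median was -0.15. The messenger median was -0.23 with median-of-ratios scaling, -0.22 when rescaled to nuclear protein-coding genes and -0.23 when rescaled without ribosomal RNA. By limma 0 of the 15 members tested passed an adjusted p of 0.05, and 0.0235% of all genes tested passed. At an unadjusted p under 0.05 there were 2 of 15, beside 7.6% of all genes. The ribosomal RNAs differed by 0.02 ± 0.30 (SE, adjusted p = 0.996 by limma) for mt-Rnr1 and -0.05 ± 0.23 (SE, adjusted p = 0.982 by limma) for mt-Rnr2.

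mt-Atp6, the proton-channel subunit of ATP synthase, had the smallest p of the members in wild type. It stood at 251 to 1055 TPM with a median of 717 in Akita wild type with vehicle, against 943, 1269.8, 734, 1359.7 and 928 TPM in non-diabetic wild type with vehicle. The groups overlapped, with 5 of 6 Akita samples below the non-diabetic median. The log2 difference was -0.82 ± 0.30 (SE, 95% interval -1.42 to -0.22, adjusted p = 0.472 by limma). For the sum of mt-Atp6 and its copy Gm10925 it was -0.59 ± 0.25 (SE, adjusted p = 0.573 by limma), and for the copy alone -0.37. For mt-Co1, whose vehicle groups also overlapped, the difference was -0.52 ± 0.24 (SE, 95% interval -0.99 to -0.04, adjusted p = 0.623 by limma), with 4 of 6 Akita samples below the non-diabetic median. Its copy Gm29216 alone differed by -1.97. The sum of TPM, in which this short copy counts per its own length, differed by -0.70 ± 0.25 (SE). mt-Atp8 differed by -0.58 ± 0.30 (SE, adjusted p = 0.666 by limma). None of these differences was larger than the spread between samples after adjustment over all genes.

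mt-Nd1 differed by -0.42 ± 0.23 (SE, adjusted p = 0.679 by limma) and mt-Cytb by -0.46 ± 0.24 (SE, adjusted p = 0.673 by limma), with 4 of 6 Akita samples below the non-diabetic median for the first gene and 4 of 6 for the second. mt-Nd6 had 117 to 327 TPM with a median of 261 in Akita wild type with vehicle, against 243, 261, 137, 235 and 189 TPM in non-diabetic wild type with vehicle. Its difference had the other sign, at 0.20 ± 0.25 (SE, adjusted p = 0.873 by limma), and the groups overlapped.

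In Sglt1 knockouts, the median difference of the 13 messenger RNAs with diabetes was -0.21, with 12 of 13 lower in Akita, and it was 0.14 with median-of-ratios scaling, 0.12 when rescaled to nuclear protein-coding genes, -0.01 when rescaled without ribosomal RNA and -0.11 with quantile normalization. Over all genes it was -0.24. limma called 0 of 15 members and 0% of all genes, with 1 member and 14.4% of all genes at an unadjusted p under 0.05. mt-Nd6 had the smallest p. It stood at 122 to 261 TPM with a median of 190.4 in Akita knockouts with vehicle, against 272, 294, 194, 306 and 261 TPM in non-diabetic knockouts with vehicle. All 6 Akita samples were below the non-diabetic median, and the ranges overlapped. The difference was -0.57 ± 0.25 (SE, 95% interval -1.07 to -0.07, adjusted p = 0.308 by limma). mt-Co2, which carries the first copper site of complex IV, differed by -0.53 ± 0.28 (SE, adjusted p = 0.370 by limma) and mt-Nd2 by -0.43 ± 0.29 (SE, adjusted p = 0.461 by limma). The sum of mt-Co2 and Gm28661 differed by -0.30 ± 0.24 (SE).

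Averaged over both genotypes, 12 of 13 messenger RNAs were lower in Akita, with a median of -0.35 that was -0.06 with median-of-ratios scaling, -0.06 when rescaled to nuclear protein-coding genes, -0.13 when rescaled without ribosomal RNA and -0.03 with quantile normalization. Over all genes it was -0.20. Of 15 members 6 had an unadjusted p under 0.05, beside 18.5% of all genes, and limma called 0, beside 0.557%. The members with the smallest p were mt-Co2 at -0.51 ± 0.20 (SE, adjusted p = 0.172 by limma), mt-Atp6 at -0.50 ± 0.21 (SE, adjusted p = 0.202 by limma) and mt-Nd2 at -0.45 ± 0.20 (SE, adjusted p = 0.233 by limma).

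Other features of the libraries had lower means with diabetes. Genes detected averaged 9665 ± 812 in Akita and 10166 ± 577 in non-diabetic wild type with vehicle (SD, n = 6 and 5), and the nuclear protein-coding share 8.59 ± 2.02% and 10.0 ± 1.55%. In knockouts with vehicle, genes detected averaged 9686 ± 1062 in Akita and 10487 ± 746 in non-diabetic tubules. The 6 markers of the late proximal tubule summed to 26.3 to 83.5 TPM in Akita and 74.5 to 132 TPM in non-diabetic wild type with vehicle. In knockouts they summed to 36.997 to 126 TPM in Akita and 55.2 to 120.4 TPM in non-diabetic tubules. With genes detected as a covariate, limma again called no member in any comparison. The part of the other features in the members' differences was not tested. Without the 4 libraries that had the fewest genes, all of them Akita with vehicle, the messenger median over both genotypes was -0.10, beside -0.04 over all genes.

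Dapagliflozin was compared with vehicle on each background. In Akita wild type, 11 of 13 messenger RNAs had a higher mean with dapagliflozin and a median of 0.28, which became -0.02 when rescaled to nuclear protein-coding genes and -0.07 with quantile normalization. In Akita knockouts 12 of 13 were higher with a median of 0.23, which became -0.04 when rescaled to nuclear protein-coding genes. The medians over all genes were 0.19 and 0.15. Averaged over both genotypes, 13 of 13 were higher with a median of 0.25, beside 0.17 over all genes, and the median was -0.01 with median-of-ratios scaling, -0.04 when rescaled to nuclear protein-coding genes, 0.15 when rescaled without ribosomal RNA and -0.01 with quantile normalization. By limma 0 of 15 members passed in Akita wild type, in Akita knockouts or in their mean, and 0, 0 and 0 had an unadjusted p under 0.05. The share of all genes that passed was 0% in wild type, 0% in knockouts and 0.816% in the mean, and 10.1%, 7.59% and 17.5% had an unadjusted p under 0.05.

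mt-Atp6 again had the smallest p of the members in Akita wild type, at 1190.3, 1296, 669, 549.6 and 781 TPM with dapagliflozin, against 251 to 1055 TPM with a median of 717 with vehicle. The difference was 0.56 ± 0.30 (SE, 95% interval -0.04 to 1.16, adjusted p = 0.543 by limma), with 3 of 5 treated samples above the vehicle median. The sum with Gm10925 differed by 0.24 ± 0.25 (SE) and the copy alone by -0.06. mt-Atp8 differed by 0.47 ± 0.30 (SE, adjusted p = 0.598 by limma) and mt-Nd5, a proton-pumping subunit of complex I, by 0.34 ± 0.25 (SE, adjusted p = 0.645 by limma). This comparison and diabetes in wild type share the Akita vehicle samples. In Akita knockouts, mt-Nd6 stood at 133 to 294 TPM with a median of 219 with dapagliflozin, against 122 to 261 TPM with a median of 190.4 with vehicle, a difference of 0.27 ± 0.24 (SE, adjusted p = 0.787 by limma) that had the smallest p of the members. mt-Nd4l differed by 0.65 ± 0.58 (SE, adjusted p = 0.798 by limma) and mt-Nd5 by 0.24 ± 0.24 (SE, adjusted p = 0.814 by limma). The sum of mt-Nd4l and Gm10222 differed by 0.19 ± 0.23 (SE) and the copy alone by 0.17. In the mean of both genotypes, mt-Atp6 differed by 0.41 ± 0.21 (SE, adjusted p = 0.289 by limma), mt-Atp8 by 0.37 ± 0.21 (SE, adjusted p = 0.338 by limma) and mt-Nd5 by 0.29 ± 0.17 (SE, adjusted p = 0.376 by limma). Summed with its copy, mt-Atp6 differed there by 0.23 ± 0.17 (SE), and the copy alone by 0.06. Without the 4 libraries with fewest genes the value of mt-Nd5 turned to -0.03.

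Without diabetes, 10 of 13 messenger RNAs had a lower mean with dapagliflozin in wild type, with a median of -0.27 (all genes -0.13), which was -0.08 with median-of-ratios scaling, -0.08 when rescaled to nuclear protein-coding genes, -0.24 when rescaled without ribosomal RNA and 0.14 with quantile normalization. In knockouts 12 of 13 were higher, with a median of 0.11 (all genes -0.06), which was 0.19 with median-of-ratios scaling, 0.15 when rescaled to nuclear protein-coding genes, 0.10 when rescaled without ribosomal RNA and 0.04 with quantile normalization. Calls by limma were 0 of 15 members in wild type, in knockouts and in their mean, beside 0%, 0.00785% and 0% of all genes. The count of members at an unadjusted p under 0.05 was 0 in each, beside 4.05%, 3.88% and 3.69% of all genes. In non-diabetic wild type the smallest p was that of mt-Atp6, at 549, 908, 461 and 785 TPM with dapagliflozin, against 943, 1269.8, 734, 1359.7 and 928 TPM with vehicle. All 4 treated samples were below the vehicle median, and the difference was -0.65 ± 0.33 (SE, 95% interval -1.31 to 0.02, adjusted p = 0.981 by limma). mt-Co3 differed by -0.50 ± 0.35 (SE, adjusted p = 0.981 by limma) and mt-Co1 by -0.34 ± 0.26 (SE, adjusted p = 0.981 by limma).

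In non-diabetic knockouts the 3 members with the smallest p were mt-Rnr2 at -0.26 ± 0.23 (SE, adjusted p = 1.00 by limma), mt-Rnr1 at -0.26 ± 0.30 (SE, adjusted p = 1.00 by limma) and mt-Co1 at 0.20 ± 0.24 (SE, adjusted p = 1.00 by limma). In the mean of both non-diabetic genotypes they were mt-Atp6 at -0.22 ± 0.22 (SE, adjusted p = 0.979 by limma), mt-Co3 at -0.20 ± 0.23 (SE, adjusted p = 0.979 by limma) and mt-Nd3 at 0.45 ± 0.58 (SE, adjusted p = 0.979 by limma). Without sample 3 of non-diabetic knockouts with vehicle the value of mt-Nd3 was -0.03. Summed with their copies, the differences were -0.14 ± 0.19 (SE) for mt-Atp6, -0.09 ± 0.18 (SE) for mt-Co3 and -0.08 ± 0.21 (SE) for mt-Nd3. The difference between the Akita and the non-diabetic effect of dapagliflozin was tested in the same model. Its median over the 13 messenger RNAs was 0.33, and it was -0.06 with median-of-ratios scaling, -0.07 when rescaled to nuclear protein-coding genes, 0.22 when rescaled without ribosomal RNA and -0.11 with quantile normalization. Over all genes it was 0.27. Of 15 members 1, mt-Atp6, had an unadjusted p under 0.05, beside 14.7% of all genes, and limma called 0, beside 0%. mt-Atp6 differed by 0.63 ± 0.30 (SE, adjusted p = 0.332 by limma), mt-Atp8 by 0.49 ± 0.30 (SE, adjusted p = 0.410 by limma) and mt-Nd4 by 0.41 ± 0.27 (SE, adjusted p = 0.431 by limma). Summed with its copy, mt-Atp6 differed by 0.37 ± 0.26 (SE).

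Semaglutide in Akita wild type gave a messenger median of 0.13 against vehicle, beside 0.13 over all genes, and it was -0.07 with median-of-ratios scaling, -0.06 when rescaled to nuclear protein-coding genes, -0.02 when rescaled without ribosomal RNA and -0.05 with quantile normalization. limma called 0 of 15 members and 0% of all genes, and 0 members and 5.82% of all genes had an unadjusted p under 0.05. The smallest p was that of mt-Rnr2, at 158131, 157131, 144985, 114294 and 202849 TPM with semaglutide, against 86245 to 178693 TPM with a median of 127726 with vehicle, a difference of 0.28 ± 0.23 (SE, adjusted p = 0.894 by limma) that turned to -0.02 with quantile normalization. mt-Co3, a core subunit of complex IV, differed by -0.36 ± 0.31 (SE, adjusted p = 0.894 by limma) and mt-Nd6 by 0.28 ± 0.25 (SE, adjusted p = 0.894 by limma). The sum of mt-Co3 and its identical copy Gm28437 differed by -0.01 ± 0.24 (SE), and the copy alone by 0.55. The numbers in the sample titles ran from 88 to 99 for semaglutide and from 1 to 82 for Akita wild type with vehicle, and whatever they order cannot be told apart from this treatment.

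Set against dapagliflozin, semaglutide gave lower means of 11 of 13 messenger RNAs, with a median of -0.20 (all genes -0.06), which was -0.11 with median-of-ratios scaling, -0.08 when rescaled to nuclear protein-coding genes, -0.23 when rescaled without ribosomal RNA and 0.01 with quantile normalization. By limma 0 of 15 members and 0% of all genes were called, and 0 members and 2.61% of all genes had an unadjusted p under 0.05. mt-Nd3 stood at 4.25, 7.06, 3.01, 6.42 and 12.2 TPM with semaglutide, against 29.9, 37.6, 25.2, 12.7 and 5.19 TPM with dapagliflozin. The difference was -1.46 ± 0.81 (SE, 95% interval -3.10 to 0.18, adjusted p = 1.00 by limma). Its copy Gm28438 differed by -0.04 and the sum of both by -0.17 ± 0.30 (SE). mt-Atp6 differed by -0.56 ± 0.31 (SE, adjusted p = 1.00 by limma) and mt-Nd5 by -0.34 ± 0.26 (SE, adjusted p = 1.00 by limma), with all 5 semaglutide samples below the dapagliflozin median for each. The sum of mt-Atp6 and its copy differed by -0.35 ± 0.26 (SE). The numbers in the sample titles ran from 88 to 99 for semaglutide and from 4 to 78 for dapagliflozin in Akita wild type. Whatever they order cannot be told apart from the drugs here either.

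Sglt1 knockout on vehicle gave a messenger median of 0.19 in Akita (all genes 0.01), which was 0.18 with median-of-ratios scaling, 0.18 when rescaled to nuclear protein-coding genes, 0.22 when rescaled without ribosomal RNA and 0.02 with quantile normalization. Without the 4 libraries with fewest genes it was 0.02. In non-diabetic tubules the median was -0.01 (all genes 0.10), and it was -0.14 with median-of-ratios scaling, -0.11 when rescaled to nuclear protein-coding genes, 0.06 when rescaled without ribosomal RNA and 0.27 with quantile normalization. In Akita limma called 0 of 15 members, beside 0.0157% of all genes, and 0 had an unadjusted p under 0.05, beside 1.95%. In non-diabetic tubules it called 0 of 15, beside 0.0235% of all genes, and 0 had an unadjusted p under 0.05, beside 4.61%. mt-Nd6 had the smallest p in both, with differences of opposite sign, whose contrast with each other was not tested on this scale. In Akita it stood at 122 to 261 TPM with a median of 190.4 in knockouts with vehicle, against 117 to 327 TPM with a median of 261 in wild type with vehicle. The difference was -0.43 ± 0.24 (SE, 95% interval -0.91 to 0.04, adjusted p = 1.00 by limma), with 6 of 6 knockouts below the wild-type median. Without diabetes it stood at 272, 294, 194, 306 and 261 TPM in knockouts with vehicle, against 243, 261, 137, 235 and 189 TPM in wild type with vehicle, a difference of 0.33 ± 0.26 (SE, adjusted p = 0.981 by limma). In Akita, mt-Atp6 differed by 0.34 ± 0.28 (SE, adjusted p = 1.00 by limma) and mt-Nd4 by 0.29 ± 0.25 (SE, adjusted p = 1.00 by limma), and the sum of mt-Atp6 and its copy by 0.20 ± 0.24 (SE). Without diabetes, mt-Co3 differed by -0.35 ± 0.33 (SE, adjusted p = 0.981 by limma) and mt-Atp6 by -0.32 ± 0.31 (SE, adjusted p = 0.981 by limma). Summed with their copies, they differed by -0.18 ± 0.25 (SE) and -0.20 ± 0.26 (SE), and each copy alone by -0.03.

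**Figure D3:**
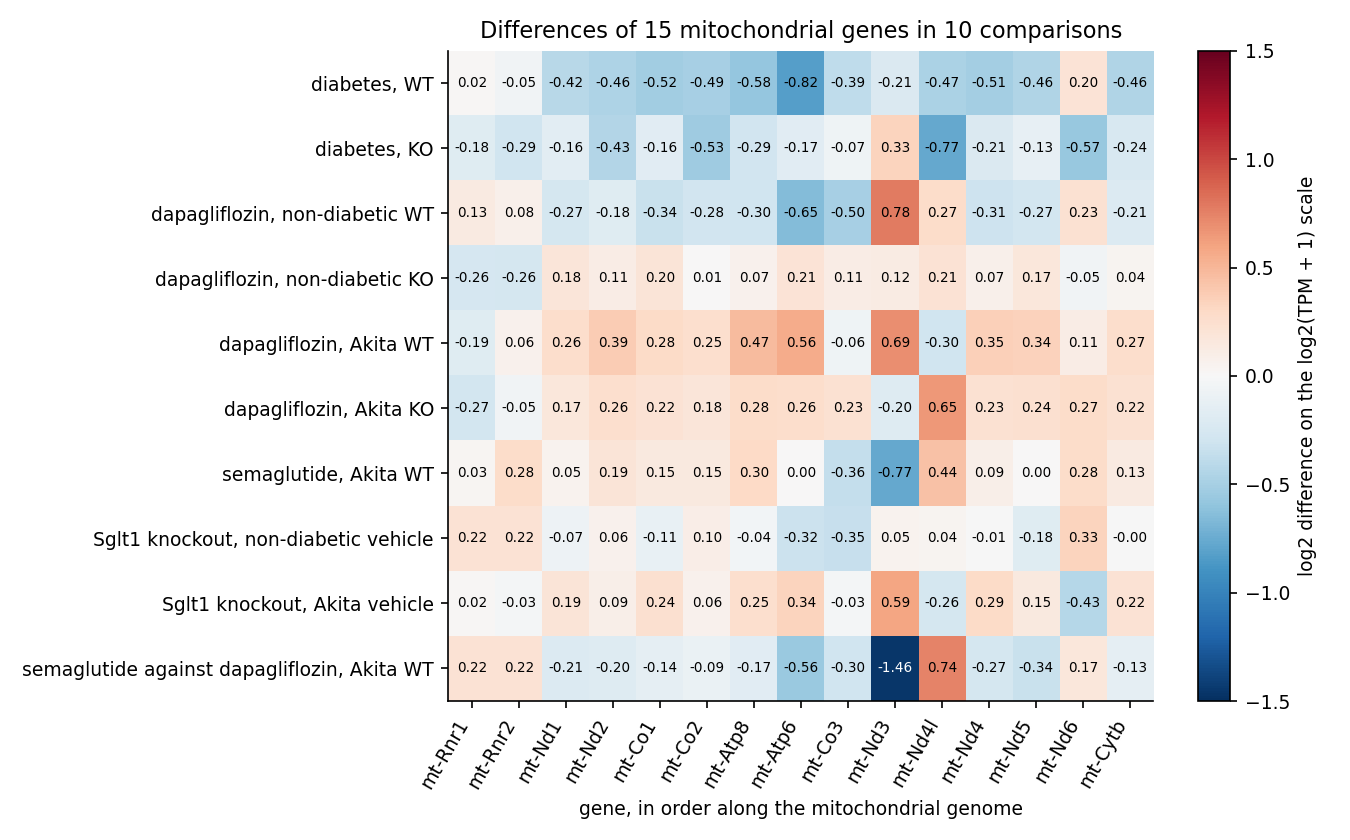
Log2 differences on the log2(TPM + 1) scale of 15 mitochondrial genes (columns, in genome order) in 10 comparisons (rows), each the first-named condition minus its control. By limma 0 of the values passed an adjusted p of 0.05, and the value farthest from 0 is mt-Nd3 with semaglutide against dapagliflozin at -1.46.

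The width of the intervals sets what these comparisons could show. In diabetes in wild type the 95% interval was -0.87 to 0.03 for mt-Nd1 and -0.50 to 0.40 for mt-Rnr2, and it was widest for mt-Nd3, at -1.78 to 1.36. A p above the threshold does not show that levels were alike within these bounds. When each member was divided by the summed messenger RNAs of its library, limma again called 0 of the 15 in each of the 14 comparisons. Of all genes scaled in the same way it called 0.0314% for diabetes in wild type and for the mean of both genotypes, 0.0157% for Sglt1 knockout on either background and for dapagliflozin in both Akita genotypes together, and 0% in the other 9. The smallest p there was that of mt-Nd6 in diabetes in wild type, a log2 difference of 0.69 ± 0.25 (SE, adjusted p = 0.761 by limma), followed by mt-Nd6 in Sglt1 knockout in Akita, -0.61 ± 0.24 (SE, adjusted p = 1.00 by limma). Both comparisons share the Akita wild-type vehicle samples.

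Ratios within a library do not depend on how the library was scaled. Of 5 ratios in 13 comparisons, 0 of 65 exact permutation tests passed after adjustment. The smallest p that an exact permutation test of 2 groups could give was 0.00216 for 6 against 6 samples. For 4 against 5 samples it was 0.0159. No such test could therefore pass alone after adjustment over 65, even with the groups fully apart. Unadjusted, 2 tests had a p under 0.05. Both were of mt-Nd6 over mt-Cytb, neighbours on opposite strands. The ratio was 0.0979 to 0.143 with a median of 0.120 in Akita knockouts with vehicle, against 0.112 to 0.304 with a median of 0.205 in Akita wild type with vehicle. The log2 difference was -0.65 (p = 0.0390 and adjusted p = 0.940, exact two-sided permutation test, 6 against 6 samples). All 6 knockouts were below the wild-type median. Against non-diabetic knockouts with vehicle, at 0.223, 0.148, 0.133, 0.126 and 0.145, the same Akita knockouts differed by -0.33 (p = 0.0498 and adjusted p = 0.940, exact two-sided permutation test, 6 against 5 samples). Sample 1 of those non-diabetic knockouts, at 0.223, lay apart from the others, at 0.126 to 0.148, and part of the difference rests on it.

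In wild type, mt-Nd6 over mt-Cytb stood at 0.133, 0.156, 0.117, 0.0901 and 0.113 in non-diabetic tubules with vehicle. The Akita difference was 0.66 (p = 0.0606 and adjusted p = 0.940, exact two-sided permutation test, 6 against 5 samples). The diabetes difference in knockouts minus that in wild type was -0.99 on the log2 scale (p = 0.00781, exact two-sided permutation test, adjusted p = 0.195 over 25 such tests, which were chosen after the values were seen). Labels were permuted within each genotype, so this p assumes no diabetes effect in either genotype, not equal effects in both. With dapagliflozin the ratio was 0.0870, 0.139, 0.204, 0.268 and 0.211 in Akita wild type and 0.0910 to 0.187 with a median of 0.108 in Akita knockouts, and with semaglutide 0.148, 0.166, 0.228, 0.217 and 0.328 in Akita wild type.

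The ratio of 16S ribosomal RNA to mt-Nd1, the next gene downstream beyond mt-Tl1, was 91.4 to 168 with a median of 141 in non-diabetic knockouts with dapagliflozin, against 216, 231, 153, 138 and 175 in non-diabetic knockouts with vehicle. The groups overlapped, and the log2 difference was -0.44 (p = 0.0541 and adjusted p = 0.940, exact two-sided permutation test, 6 against 5 samples). In non-diabetic wild type it was 0.34 (p = 0.310 and adjusted p = 0.940, exact two-sided permutation test, 4 against 5 samples). The difference in knockouts minus that in wild type was -0.79 (p = 0.0246, exact two-sided permutation test, adjusted p = 0.307). This p, too, assumes no effect in either genotype. Of the ratios, mt-Nd1 over mt-Cytb and mt-Nd4 over mt-Co1 varied least, at 0.513 ± 0.0563 and 0.346 ± 0.0375 (SD, n = 48), against 0.159 ± 0.0573 for mt-Nd6 over mt-Cytb, 0.734 ± 0.250 for mt-Rnr1 over mt-Rnr2 and 176 ± 62.0 for mt-Rnr2 over mt-Nd1. The ratio of mt-Nd4 to mt-Co1 leaves out their nuclear copies. Gm29216, counted per its own shorter length, took 1.14% to 39.4% of its TPM sum with mt-Co1.

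**Figure D4:**
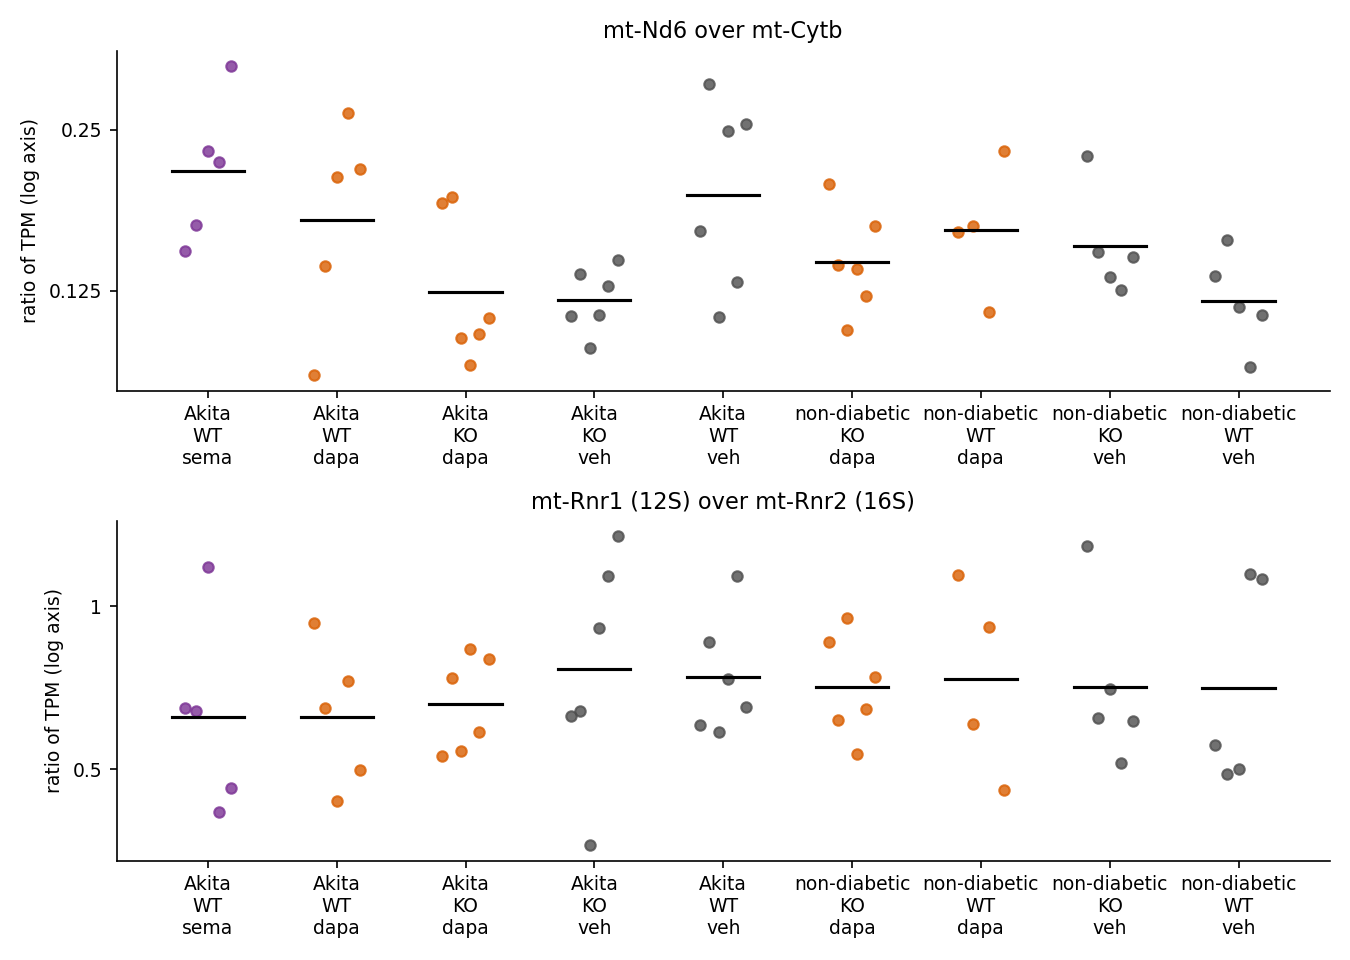
Ratio of TPM of mt-Nd6 to mt-Cytb (upper) and of mt-Rnr1 to mt-Rnr2 (lower) in each sample of 9 groups, on log axes. Points are samples and lines are geometric means. The mt-Nd6 ratio lay between 0.0979 and 0.143 in Akita knockouts with vehicle and between 0.112 and 0.304 in Akita wild type with vehicle.

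Across libraries, the ratio of 12S to 16S ribosomal RNA was lower in libraries that detected more genes. The log2 ratio and genes detected gave Pearson's r = -0.73 and Spearman's rho = -0.72 (n = 48), permutation p = 1e-05 for both, the smallest that 100000 permutations can give, and adjusted p = 0.0001 over a family of 30 relations. Without the 2 libraries farthest from the median of genes detected r was -0.68, and within groups, after subtracting each group's mean, it was -0.76. With the nuclear protein-coding share the values were Pearson's r = -0.74 and Spearman's rho = -0.76 (n = 48), -0.77 without the 2 farthest and -0.78 within groups (permutation p = 1e-05, adjusted p = 0.0001). The 8 libraries in which mt-Rnr1 exceeded mt-Rnr2 came from 6 of the 9 groups and detected 8465 to 10409 genes. Of the other 4 ratios of 2 genes, mt-Nd4 over mt-Co1 had the rho with genes detected farthest from 0, at -0.13, with Pearson's r = -0.05 (permutation p = 0.727, adjusted p = 0.869). The log2 ratio of the ribosomal to the messenger sum gave Pearson's r = -0.41 and Spearman's rho = -0.37 (adjusted permutation p = 0.0207 and 0.0534). Within groups r was -0.40. As a description, rho with genes detected was 0.39 for the messenger sum and ran from -0.42 for mt-Rnr1 to 0.52 for mt-Atp6 among the members tested. The share of each library taken by 1 RNA limits that of the others, so levels in TPM are not independent of each other, and samples may share an animal.

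**Figure D5:**
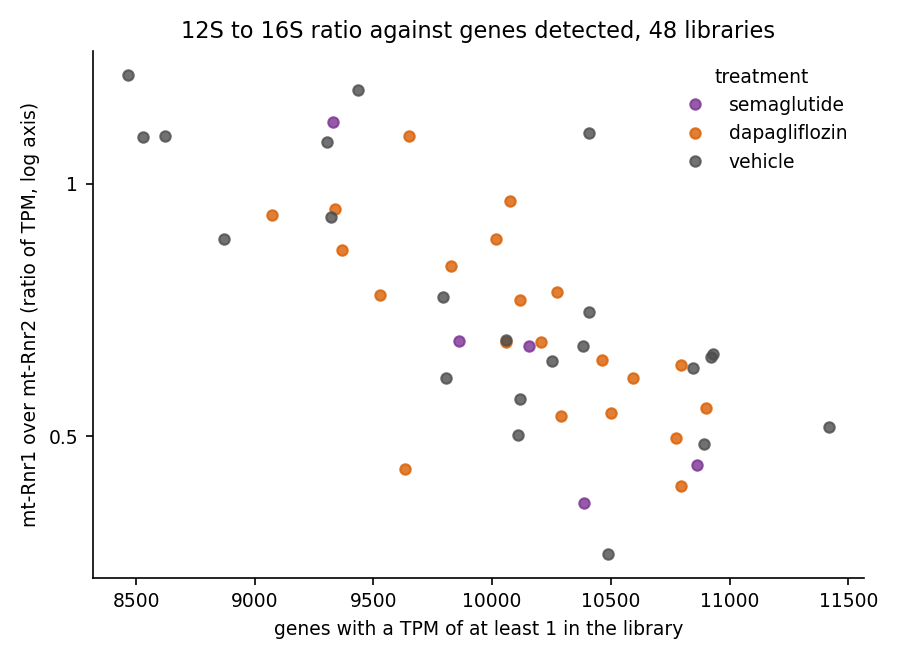
Ratio of mt-Rnr1 to mt-Rnr2 (log axis) against the number of genes with a TPM of at least 1, for 48 libraries coloured by treatment. The ratio is lower where more genes were detected, with Spearman's rho of -0.72.

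Across libraries, mt-Nd6 followed the other messenger RNAs less closely than any but mt-Nd3 did. As a description over 48 libraries that share the scaling to a fixed sum, the median Spearman's rho of a messenger RNA with the other 12 was 0.86 for mt-Cytb, 0.84 for mt-Nd4 and 0.83 for mt-Co1. It was 0.25 for mt-Nd6 and 0.13 for mt-Nd3. Log levels of mt-Nd6 and mt-Rnr2 gave Pearson's r = 0.66 and Spearman's rho = 0.67 (n = 48), permutation p = 1e-05 for both and adjusted p = 0.0001 over the 30 relations. Without the 2 libraries farthest from the median of mt-Rnr2 r was 0.66, and within groups 0.66. With mt-Nd2 mt-Nd6 gave Pearson's r = 0.56 and Spearman's rho = 0.53 (n = 48), with adjusted permutation p = 0.000300 and 0.000600. With mt-Co2, mt-Nd5 and mt-Atp8 it gave Pearson's r = 0.40, 0.38 and 0.38 (n = 48), with adjusted permutation p = 0.0207, 0.0301 and 0.0301. Spearman's rho was 0.37, 0.32 and 0.36, with adjusted permutation p = 0.0534, 0.102 and 0.0561. Within groups, r of mt-Nd6 with the messenger RNAs ran from 0.11 for mt-Nd3 to 0.63 for mt-Nd2, and was 0.45 for mt-Cytb. Over all libraries, mt-Nd6 with mt-Cytb gave Pearson's r = 0.34 and Spearman's rho = 0.27 (n = 48), with adjusted permutation p = 0.0597 and 0.159. With mt-Rnr1, mt-Nd6 gave Pearson's r = 0.28 and Spearman's rho = 0.26 (n = 48), with adjusted permutation p = 0.124 and 0.159. The share of nuclear ribosomal RNA moved with both mt-Nd6 and mt-Rnr2, with a rho of -0.63 and -0.60, and its part in their relation was not tested.

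Nuclear genes act on the mitochondrial genome as its expression factors, such as the RNA polymerase Polrmt, the packaging factor Tfam and the messenger-stabilising protein Lrpprc, and as the larger number of respiratory chain subunits. Of 48 expression factors, 46 were tested, and limma called 0 of them in each of the 14 comparisons. Of 76 nuclear subunits of complexes I to V, 75 were tested and 0 were called. At an unadjusted p under 0.05, the counts for diabetes averaged over genotypes were 6 lower and 0 higher factors and 2 lower and 0 higher subunits, beside 18.5% of all genes in either direction. For dapagliflozin in Akita averaged over genotypes they were 10 higher and 0 lower factors and 19 higher and 0 lower subunits, beside 17.5% of all genes. The median log2 difference of the subunits was -0.13 with diabetes and 0.25 with dapagliflozin in Akita, beside -0.20 and 0.17 over all genes. The factors had -0.19 and 0.19. These lists were described by their counts and medians only.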

How the data were processed

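The authors deposited 1 table of TPM values, with each library summing to at least 999999. Per the submitters' processing notes, Salmon, MultiQC 1.8 and the mouse build GRCm38 were used, and the annotation is not given in the sources used here. The table's name states that outliers were removed, by a rule it does not give, and 6 of 54 labelled samples were not analysed here. Libraries came from a stranded total RNA kit for low input (0.5 ng RNA), per the labels' protocols, and ribosomal RNA takes up much of the TPM. RNA was accepted from a DV200, a measure of how long its fragments are, of 30%. The part of RNA quality in the levels and ratios was not tested.

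Rows were matched by name or identifier to the GENCODE annotation of GRCm38, which matched 51896 of 55487. limma 3.58.1 (R 4.3.3, robust empirical Bayes with a trend) was fitted to log2(TPM + 1) over 12742 genes with a TPM of 1 in at least 5 samples, using all 9 groups and no covariate, with Benjamini-Hochberg adjustment over all genes. Ratios were tested by exact permutation, adjusted over 65 tests. Nuclear copies were found by BLAST 2.17.0. Fits were tested on simulated data with 200 changed genes. Named in each comparison were the 3 members with the smallest p, and by sample both ribosomal RNAs, mt-Nd1, mt-Co1, mt-Cytb and mt-Nd6. The members, lists and tests were chosen with earlier results of these data known. The interaction tests and the summing with nuclear copies were chosen after the values were seen.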

Additional observations from a re-analysis of the deposited data

Results flagged for a closer look

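In 7 of the 207 group-by-measure sets examined, 1 sample lay farther from the others than Dixon's 95% limit, and chance alone flags about 1 set in 20. Samples are numbered here from 1 to 6 within a group's labelled samples. mt-Rnr2 stood at 211605 TPM in sample 6 of non-diabetic wild type with dapagliflozin, against 113293 to 122049 TPM in the other 3. mt-Atp8 stood at 1989 TPM in sample 1 of Akita knockouts with vehicle, against 679 to 1142 TPM in the other 5. mt-Nd3 stood at 33.6 TPM in sample 4 of the same group, against 11.001 to 18.1 TPM, and at 5.32 TPM in sample 6 of non-diabetic wild type with vehicle, against 13.9 to 17.3 TPM. Sample 1 of non-diabetic knockouts with vehicle was apart in both mt-Rnr1 over mt-Rnr2, at 1.29 against 0.513 to 0.703, and mt-Nd6 over mt-Cytb, at 0.223 against 0.126 to 0.148. It detected 9436 genes. mt-Nd1 over mt-Cytb was 0.706 in sample 4 of Akita wild type with vehicle, against 0.461 to 0.518 in the other 5.

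Effects on 2 ratios differed between genotypes at an unadjusted p under 0.05 among 25 such tests, and neither passed after adjustment. Labels were permuted within each genotype, so a small p can also come from an effect in 1 genotype alone. For mt-Nd6 over mt-Cytb, the diabetes difference in knockouts minus that in wild type was -0.99 on the log2 scale (p = 0.00781, adjusted p = 0.195, exact two-sided permutation test). For mt-Rnr2 over mt-Nd1, the difference with dapagliflozin in non-diabetic knockouts minus that in non-diabetic wild type was -0.79 (p = 0.0246, adjusted p = 0.307, exact two-sided permutation test).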

How the results depend on the processing

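The count of members called stayed at 0 in all 14 comparisons under all 398 alternatives. These changed the pseudocount, the filter on low values, the scaling and the groups in the fit. Others took the number in the sample title or genes detected as a covariate. The rest left out single libraries or the 4 with the fewest genes, or summed members with their nuclear copies. The lowest adjusted p by limma was 0.0806, for mt-Co2 with diabetes averaged over genotypes without sample 1 of Akita wild type with vehicle. Of 1194 alternative values for named members 11 changed sign, and of 995 for ratios 99 did, in 34 of 65 ratio comparisons, of which 0 passed in any alternative (lowest adjusted p = 0.422, exact permutation test). No paired analysis was possible because the replicate numbers follow accession order and pair no samples. Unknown depth limits what can be said of mt-Nd3, mt-Nd4l and the transfer RNAs. The causes of the sign changes were not tested.

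With quantile normalization, the log2 differences with the other sign were 0.10 for mt-Rnr2 (dapagliflozin in non-diabetic knockouts), -0.077 for mt-Nd6 (dapagliflozin in Akita knockouts), -0.017 for mt-Rnr2 (semaglutide), 0.097 for mt-Atp6 (knockout without diabetes) and -0.064 for mt-Nd4 (dapagliflozin by diabetes). Without the 4 libraries that detected the fewest genes, the log2 differences with the other sign were -0.044 for mt-Nd5 (dapagliflozin in Akita wild type), -0.018 for mt-Nd5 (dapagliflozin in Akita knockouts) and -0.031 for mt-Nd5 (dapagliflozin in Akita over both genotypes). Rescaled to nuclear protein-coding genes, the log2 differences with the other sign were -0.029 for mt-Nd5 (dapagliflozin in Akita knockouts). Summed with its nuclear copy, the log2 differences with the other sign were -0.080 for mt-Nd3 (dapagliflozin without diabetes over both genotypes). Leaving out 1 library each, mt-Nd3 with dapagliflozin without diabetes over both genotypes ranged from -0.031 to 0.84. Without the 4 libraries that detected the fewest genes, these log2 ratio differences had the other sign. mt-Rnr1 over mt-Rnr2 was -0.14 for diabetes in wild type, -0.23 for diabetes in knockouts, 0.13 for dapagliflozin in Akita knockouts, -0.088 for knockout in Akita, -0.18 for diabetes averaged over genotypes and 0.045 for dapagliflozin in Akita over both genotypes. mt-Rnr2 over mt-Nd1 was 0.10 for dapagliflozin in Akita wild type, 0.065 for knockout in Akita and -0.044 for diabetes averaged over genotypes. mt-Nd6 over mt-Cytb was 0.0052 for dapagliflozin in Akita over both genotypes. mt-Nd4 over mt-Co1 was -0.0045 for dapagliflozin in Akita wild type, -0.047 for knockout in Akita and 0.0016 for diabetes averaged over genotypes. With medians in place of means, these log2 ratio differences had the other sign. mt-Rnr2 over mt-Nd1 was 0.37 for dapagliflozin in Akita wild type, -0.10 for semaglutide against dapagliflozin and 0.13 for dapagliflozin in Akita over both genotypes. mt-Nd1 over mt-Cytb was -0.0075 for dapagliflozin without diabetes over both genotypes. mt-Nd6 over mt-Cytb was 0.024 for dapagliflozin in Akita wild type and -0.15 for dapagliflozin in Akita knockouts. mt-Nd4 over mt-Co1 was -0.032 for dapagliflozin in Akita wild type and -0.012 for knockout in Akita. Leaving out 1 library each, the ratio differences that changed sign were these. mt-Rnr1 over mt-Rnr2 ranged from -0.061 to 0.25 for diabetes in wild type, -0.048 to 0.33 for diabetes in knockouts, -0.16 to 0.28 for dapagliflozin in non-diabetic wild type, -0.11 to 0.22 for dapagliflozin in non-diabetic knockouts, -0.21 to 0.18 for knockout without diabetes, -0.11 to 0.27 for knockout in Akita, -0.23 to 0.14 for semaglutide against dapagliflozin and -0.075 to 0.14 for dapagliflozin without diabetes over both genotypes. mt-Rnr2 over mt-Nd1 ranged from -0.37 to 0.15 for dapagliflozin in Akita wild type and -0.16 to 0.021 for dapagliflozin without diabetes over both genotypes. mt-Nd1 over mt-Cytb ranged from -0.051 to 0.072 for diabetes in wild type, -0.046 to 0.078 for dapagliflozin in Akita wild type, -0.12 to 0.0028 for semaglutide, -0.069 to 0.059 for knockout in Akita and -0.050 to 0.013 for dapagliflozin in Akita over both genotypes. mt-Nd6 over mt-Cytb ranged from -0.19 to 0.045 for dapagliflozin in non-diabetic knockouts, -0.32 to 0.083 for dapagliflozin in Akita wild type, -0.071 to 0.14 for dapagliflozin in Akita knockouts, -0.017 to 0.28 for semaglutide and -0.14 to 0.065 for dapagliflozin in Akita over both genotypes. mt-Nd4 over mt-Co1 ranged from -0.038 to 0.070 for diabetes in wild type, -0.016 to 0.093 for dapagliflozin in non-diabetic wild type, -0.025 to 0.056 for dapagliflozin in Akita knockouts, -0.0072 to 0.091 for knockout in Akita and -0.044 to 0.0099 for diabetes averaged over genotypes.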
